A study of Mus musculus with 6 samples.

Results

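The B cell receptor (BCR) and B lineage genes Cd79a, Cd79b, Blk, Ms4a1, Cd22, Fcer2a, Cr2, Pax5 and Ebf1 were followed in sorted mouse cells. These 9 genes were listed by name and found among the 54532 genes of the deposited tables by their Ensembl identifiers in the GENCODE M21 annotation of the GRCm38 genome. All 9 had values above 0 in all 6 libraries.

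Of the 6 libraries, 4 were made from macrophages (WT, WT/FE, and the leukemic MA9 and MA9/FE) and 2 from the leukemia cells (MA9 and MA9/FE), with 1 library per condition. All mice were on the C57BL/6 background, and the methods of the study give an age of 6 to 8 weeks for the animals supplied. WT mice carried no leukemia. MA9 mice had received GFP+ leukemia cells derived from c-kit+ bone marrow (BM) cells transduced with an MSCV retrovirus that carries the MLL-AF9 fusion gene, so the fusion was expressed from a retroviral vector in transplanted cells, while the macrophages were sorted from GFP- cells. FE marks iron overload. Iron dextran (25 mg/mL) was given 6 times into the peritoneum, every other day and 0.2 mL each time, starting a week after transplantation in MA9/FE mice, and the mice without FE received the same volume of PBS. According to the methods, macrophages were gated as GFP- Gr-1lo F4/80+ CD115int cells with intermediate to low side scatter, a gate that names no B cell marker. The labels place the macrophages in the spleen and the leukemia cells in the BM, whereas the methods place the macrophages in the BM, and this conflict was not settled. It was not stated whether animals were pooled.

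The values are FPKM, that is read counts scaled by exon length and by the depth of the library, so levels of different genes are compared per length. The value of 1 read was recovered from the low values of each library, and the recovered depth was between 16085347 and 19518360 reads. All 9 genes came out at whole reads in every library, and 96.8% to 97.0% of all values above 0 did so within 0.05 reads. Intervals below are exact 95% counting intervals and cover counting error only. With 1 library per condition, the difference between mice is not covered by any interval. Annotated exons on the opposite strand cover 9.5% of the exon bases of Cd22 and 7.18% and 1.41% of those of Pax5, and with at most 95 reads in any library these neighbours are small beside their partners in the macrophages. Whether the counting used strand was not stated.

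The BCR of a B cell consists of a membrane immunoglobulin and the signalling pair CD79A and CD79B, whose phosphorylation by Src family kinases such as BLK starts the response to antigen. Coreceptors set its threshold, among them the complement receptor CD21 encoded by Cr2, which lowers it, and the sialic acid binding lectin CD22, which raises it. EBF1 and PAX5 establish and maintain the B lineage, and the signalling chains and Blk are among the genes that these factors switch on. Macrophages and MLL-AF9 leukemia cells are myeloid cells in which this set of genes is not known as a characteristic programme.

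Promoter sequences are shown for 3 members, Cd79a because the comparisons turn on the signalling chains, Fcer2a because it had the lowest ratio with leukemia in the mice without iron, and Cd22 because it was the only member with the full EBF1 palindrome. Of the 9 members, 6 were found in the RefSeq promoter table (GRCm38.p6), with 9 start sites in all, and Cd79b, Blk and Ms4a1 were not. The capitals mark letters searched for the lineage factor EBF1, on both strands of the 250 bases before each start site. Each stretch is the longest run of that window outside GENCODE exons, written 5′ to 3′ on the gene's strand. The Cd79a stretch is chr7:24897247-24897380 on the plus strand, the Fcer2a stretch chr8:3694176-3694424 on the minus strand, and the Cd22 stretch chr7:30879029-30879176 on the minus strand.
Cd79a: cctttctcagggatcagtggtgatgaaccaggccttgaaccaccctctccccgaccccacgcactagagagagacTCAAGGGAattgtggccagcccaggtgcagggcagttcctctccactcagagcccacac
Fcer2a: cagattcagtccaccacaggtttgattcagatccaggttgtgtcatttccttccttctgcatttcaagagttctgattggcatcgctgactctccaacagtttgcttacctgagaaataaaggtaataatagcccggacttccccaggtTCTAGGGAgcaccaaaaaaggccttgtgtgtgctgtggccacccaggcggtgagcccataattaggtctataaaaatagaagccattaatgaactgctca
Cd22: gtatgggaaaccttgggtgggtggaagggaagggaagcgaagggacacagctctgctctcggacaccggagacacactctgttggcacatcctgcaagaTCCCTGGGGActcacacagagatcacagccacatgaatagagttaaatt
The marked letters of Cd79a lie from position -175 to -168 and those of Fcer2a from -101 to -94 relative to the RefSeq start site, and both match TCNNGGGA. The Cd79a promoter, also called the mb-1 promoter, is known to be bound by EBF1 and PAX5. The marked letters of Cd22, from -49 to -40, match the EBF1 palindrome, TCCC and GGGA with any 2 bases between them.

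The palindrome was found at 1 of the 6 member genes (1 of 9 start sites) and in 0.7793% of 32851 promoters of the same length. The shorter TCNNGGGA was added after the sequences had been seen. It was found at 3 member genes, Cd79a, Fcer2a and Pax5 (4 of 9 start sites), and in 15.14% of all promoters. The E-box CAGGTG was found at 4 member genes, Cr2, Cd79a, Cd22 and Fcer2a (4 of 9 start sites), and in 17.22% of all promoters. A gene with several start sites has more chances of a match, so counts of genes are not comparable with these shares. Of 19 other B cell genes with a promoter listed, 0 had the palindrome, 7 the shorter letters and 6 the E-box. The octamer ATTTGCAT, found in 1.601% of promoters, and the PU.1 and ETS letters GAGGAAGT, found in 2.441%, were not in these windows of the member genes. No match of one set of letters overlapped a match of another at these genes. These are descriptions of letters and not of binding.

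In the 4 macrophage libraries the BCR and B lineage genes stood at high levels, and the signalling chains were among the genes with the highest FPKM. Cd79a (ENSMUSG00000003379, chromosome 7, 24897381 to 24902197) had an FPKM of 745 in the WT library, 693 with iron (WT/FE), 415 with leukemia (MA9) and 802 with both (MA9/FE). It ranked 44th, 40th, 103rd and 63rd of all genes in these libraries. Cd79b (ENSMUSG00000040592, chromosome 11, 106311341 to 106314762) had 576, 503, 292 and 618 in the same order, which is kept below for all sets of macrophage values. For both chains the MA9 library was the lowest and the MA9/FE library the highest of the 4. The level of Cd79b relative to Cd79a, which work as a pair in the protein complex, was 0.774, 0.725, 0.703 and 0.770.

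Blk (ENSMUSG00000014453, chromosome 14, 63372836 to 63417037), the Src family kinase of B cells, had an FPKM of 122, 133, 82.0 and 110. The surface receptors lay in the same range. Ms4a1 (ENSMUSG00000024673, chromosome 19, 11249675 to 11266241), which encodes CD20, had 125, 109, 76.0 and 112. Cd22 (ENSMUSG00000030577, chromosome 7, 30865402 to 30880342), the inhibitory coreceptor, had 156, 171, 102 and 123. For the kinase and both of these receptors the MA9 library was again the lowest. Fcer2a (ENSMUSG00000005540, chromosome 8, 3681737 to 3694175), which encodes the low affinity IgE receptor CD23 of mature follicular B cells, had 115, 101, 43.8 and 73.2. Cr2 (ENSMUSG00000026616, chromosome 1, 195136811 to 195176716), which encodes CD21 and CD35, had 65.6, 71.7, 36.7 and 60.1. Fcer2a and Cr2 were lower in both leukemic libraries than in both nonleukemic ones, as were Blk and Cd22 but not Ms4a1.

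Of the transcription factors, Pax5 lay close to Cr2 and Ebf1 had the lowest level per length of all 9 genes in every macrophage library. Pax5 (ENSMUSG00000014030, chromosome 4, 44524757 to 44710487) had an FPKM of 63.3, 63.0, 43.4 and 44.4. Ebf1 (ENSMUSG00000057098, chromosome 11, 44617317 to 45008091) had 10.6, 11.7, 7.08 and 8.12. For both factors each leukemic library lay below each nonleukemic one, and the libraries with and without iron lay closer together than those with and without leukemia. Over the macrophage libraries the highest level was 1.46 times the lowest for Pax5 and 2.63 times for Fcer2a, with the other members between these. The order Cd79a, Cd79b, Cd22 held in all 4 libraries, while the ranges of Ms4a1, Blk and Fcer2a overlapped each other, as did those of Cr2 and Pax5.

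**Figure D1:**
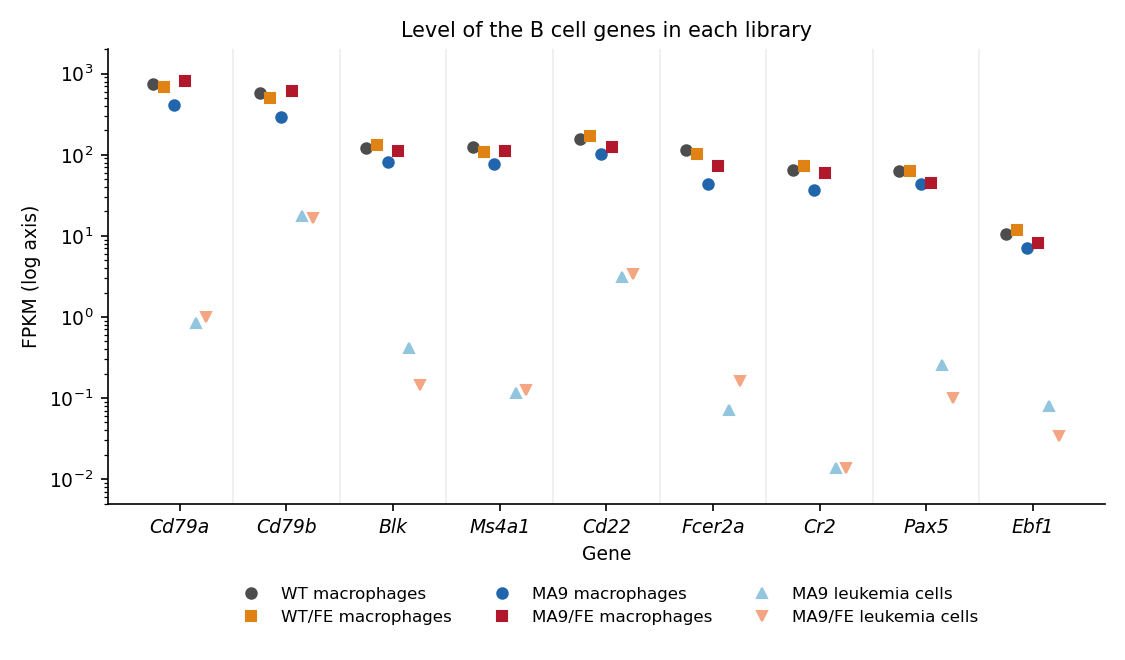
FPKM of the 9 genes on a log axis, with 1 point per library (1 library per condition, so no error bar). The macrophage libraries (circles and squares) sit between 7.08 and 802, and the leukemia cell libraries (triangles) lie below them for every gene, with Cd79b at 17.3 and 16.4 the highest there.

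All 9 genes had their lowest macrophage level in the MA9 library, where 27.3% of 17249 genes had theirs. The highest level of Ms4a1, Fcer2a and Pax5 was that of WT, as for 20.1% of genes. Blk, Cd22, Cr2 and Ebf1 were highest in WT/FE, as were 25.3% of genes, and Cd79a and Cd79b in MA9/FE, as were 27.7%. Together the 9 genes took 0.535% of all reads (Wilson 95% interval 0.532% to 0.538%) without leukemia or iron, 0.519% with iron, 0.312% with leukemia and 0.485% with both. In bulk samples, fewer cells of a type and less RNA per cell cannot be told apart.

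The labelled cell type was checked by its own markers. Adgre1, which encodes the F4/80 antigen of the gate, had an FPKM of 40.1, 54.5, 32.2 and 52.4. Csf1r, which encodes CD115, had 56.6, 111, 63.9 and 98.1. Cd79a was 18.6, 12.7, 12.9 and 15.3 times as high as Adgre1 per length in these libraries. Thus the libraries labelled as macrophages held transcripts of both kinds, with the BCR chains above the gate markers. Of 17 macrophage markers none was listed at 0 in a macrophage library, and their summed FPKM was 793, 1269, 883 and 1674. The 10 T cell markers summed to 139, 112, 107 and 148, from Cd3e with at most 1.04 to Cd2 with 54.0, 44.4, 32.8 and 58.0.

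Leukemia without iron was compared first, MA9 against WT macrophages. All 9 genes were lower in the MA9 library, where 50.5% of 16925 genes were lower, and every counting interval lay below 1. The ratio of MA9 to WT after TMM scaling, which sets the trimmed mean of the log ratios of all genes to equal levels, was 0.511 for Cd79b (0.497 to 0.526), 0.562 for Cd79a and 0.564 for Cr2. It was 0.616 for Ms4a1, 0.661 for Cd22, 0.672 for Ebf1, 0.680 for Blk and 0.692 for Pax5. Fcer2a had the lowest ratio of the 9, 0.383 (0.365 to 0.402), which is a log2 fold change of -1.36 on the log2(FPKM + 1) scale used throughout. It was the only member with a fold of at least 2, against 4.7% of all genes in either direction and 0.91% lower. The median log2 fold change of the 9 was -0.69, beside -0.00 over all genes tested. All 4 surface receptors and both signalling chains thus had lower ratios than both lineage factors, and Blk lay between the factors. The interval of Cd22 (0.644 to 0.679) lay inside that of Ebf1 (0.625 to 0.723). On the log2(FPKM + 1) scale Blk at -0.55 was below both Pax5 at -0.52 and Ebf1 at -0.51. No test can order the members with 1 library per condition.

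Other cell markers differed between the same libraries. All 12 neutrophil markers were higher in the MA9 library, 11 of them with a fold of at least 2, and their summed FPKM was 6.84, 5.12, 1893 and 959. Ly6g, a defining neutrophil marker recognised by Gr-1 antibodies, was listed at 0 in both nonleukemic libraries and had 1.69 and 1.98 in the leukemic ones. Ltf and Mmp8 were also listed at 0 in WT, and Camp and Mmp8 in WT/FE. The leukemia cells had the highest sums of this list, 5293 without and 4158 with iron, and Ly6g had 6.20 and 4.10 there. From which cells these reads came in the leukemic macrophage libraries was not tested. Of 17 macrophage markers 6 were higher and 11 lower in MA9, none with a fold of at least 2, and their median log2 fold change was -0.09. The part of these markers in the levels of the B cell genes was not tested.

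With iron in both, MA9/FE against WT/FE macrophages, the members split. Cd79b was higher with leukemia at a ratio of 1.25 (1.22 to 1.28), Cd79a at 1.17 (1.15 to 1.20) and Ms4a1 at 1.04 (1.02 to 1.07). The other 6 were lower, Blk at 0.839, Cr2 at 0.850, Fcer2a at 0.736, Cd22 at 0.731, Pax5 at 0.715 and Ebf1 at 0.706 (0.658 to 0.759). Of all 16566 genes 51.4% were higher and 48.6% lower. No member had a fold of at least 2, against 4.58% of all genes. With the trend of fold change on exon length removed, an alternative described below, the log2 fold change was 0.04 in place of 0.23 for Cd79a and 0.12 in place of 0.32 for Cd79b. Blk, Cd22, Fcer2a, Cr2 and both transcription factors were lower with leukemia at either iron state, whereas the signalling chains and Ms4a1 lay below 1 without iron and above 1 with iron. The neutrophil markers were higher with leukemia here as well, 12 of 12, and 11 of 17 macrophage markers were higher.

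Iron was compared first in mice without leukemia. In WT/FE against WT macrophages the 9 genes stayed close to 1, between 0.868 for Cd79b and 1.09 for Ebf1. The ratio was above 1 for Blk, Cd22, Cr2 and Ebf1 and below 1 for the other 5, where 46.7% of all genes were above and 53.3% below. For Pax5, at 0.991 (0.964 to 1.02), the counting interval included 1. No member had a fold of at least 2, against 1.27% of 16754 genes. In the same libraries all 17 macrophage markers were higher with iron, 4 with a fold of at least 2, with a median log2 fold change of 0.90. That of the 9 B cell genes was -0.01.

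In leukemic mice iron went with higher levels of all 9 genes, MA9/FE against MA9 macrophages, where 51.8% of 16509 genes were higher. The ratio was 2.17 for Cd79b (2.11 to 2.23), the only member with a fold of at least 2, against 2.46% of all genes in either direction and 1.2% higher. Cd79a followed at 1.98 (1.94 to 2.03), then Fcer2a at 1.71, Cr2 at 1.68, Ms4a1 at 1.51 and Blk at 1.37. Cd22 at 1.23, Ebf1 at 1.18 and Pax5 at 1.05 (1.01 to 1.09) were the closest to 1. In this scaling the signalling chains had the highest ratios and the transcription factors the lowest. All 17 macrophage markers were higher with iron here too, 9 with a fold of at least 2, and 11 of 12 neutrophil markers were lower. The part of either list in the result was not tested.

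**Figure D2:**
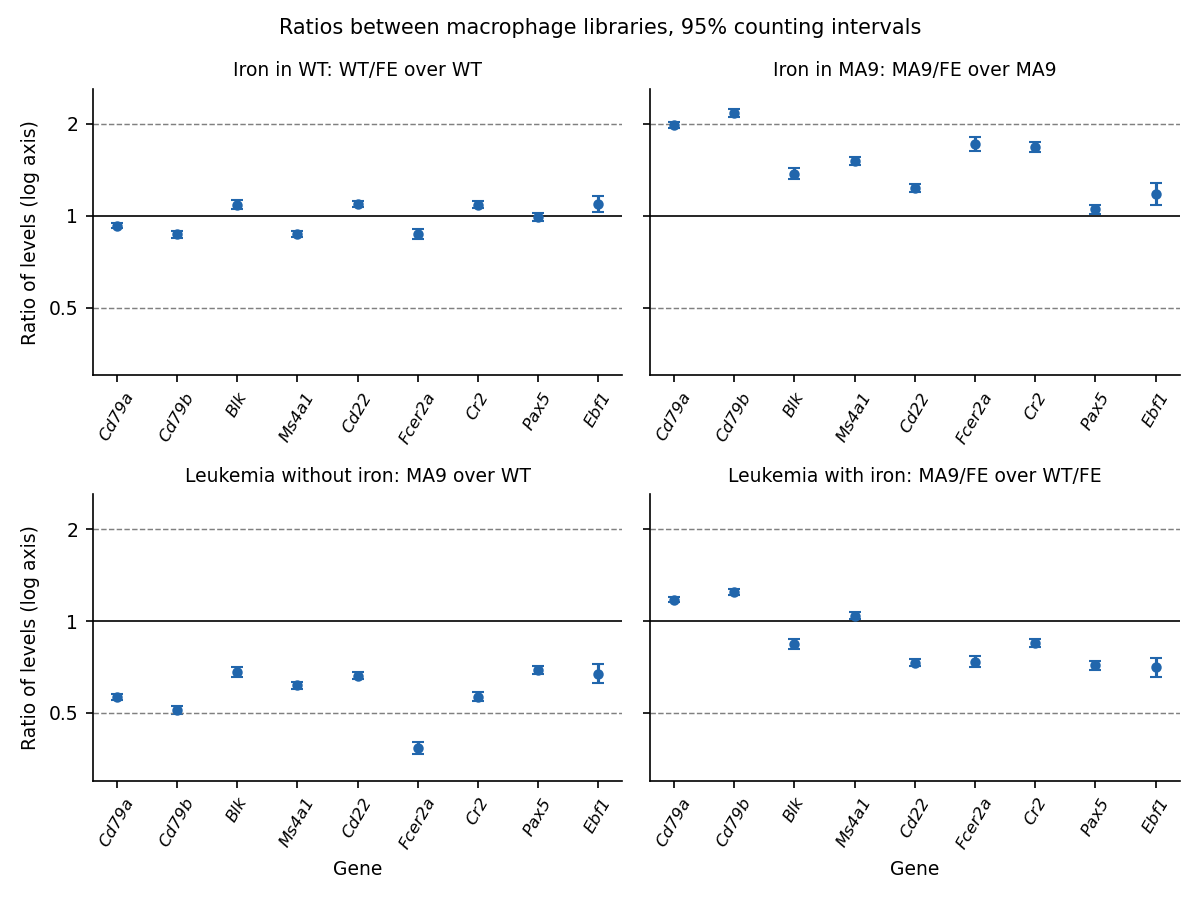
Ratio of scaled levels between macrophage libraries for the 9 genes on a log axis, in 4 comparisons with 1 library on each side. Points are ratios, bars are exact 95% counting intervals, the solid line marks equal levels and the dashed lines a fold of 2. All points lie below 1 for MA9 over WT, with Fcer2a at 0.383, and above 1 for MA9/FE over MA9, with Cd79b at 2.17.

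The difference between the iron effects in MA9 and WT mice, taken as the difference of the log2 fold changes, was 1.32 for Cd79b and 1.10 for Cd79a. It was 0.96 for Fcer2a, 0.79 for Ms4a1, 0.61 for Cr2 and 0.33 for Blk. For Cd22 it was 0.18, for Ebf1 0.09 and for Pax5 0.08, the smallest of the 9. This difference was not tested, since it rests on 1 library in each of 4 conditions, and the MA9 library enters both the comparison with WT and the comparison with MA9/FE.

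Fold change went with exon length in both macrophage comparisons that involve the MA9/FE library. The chains have the shortest exons, 1431 bases for Cd79b and 1457 for Cd79a, and Pax5 and Ebf1 the longest, 8853 and 9756. Over the 9 genes Spearman's rho of log2 fold change with exon length was -0.78 for MA9/FE against MA9 and -0.73 for MA9/FE against WT/FE macrophages. Over all genes tested it was -0.28 and -0.27. For MA9 against WT macrophages it was 0.68 over the members and 0.06 over all genes. These are descriptions across genes, which share the libraries and are not independent. After removal of the trend over all genes, an alternative chosen after the data were seen, the log2 fold change of Cd79b in MA9/FE against MA9 macrophages was 0.96 in place of 1.12, and no member had a fold of at least 2. That of Cd79a was 0.83 in place of 0.99, and those of Pax5 and Ebf1 were 0.20 and 0.36 in place of 0.07 and 0.21. All 9 remained above 0 and the chains stayed above the transcription factors, but Cr2 at 0.85 passed Cd79a and Cd22 at 0.33 lay below Ebf1.

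**Figure D3:**
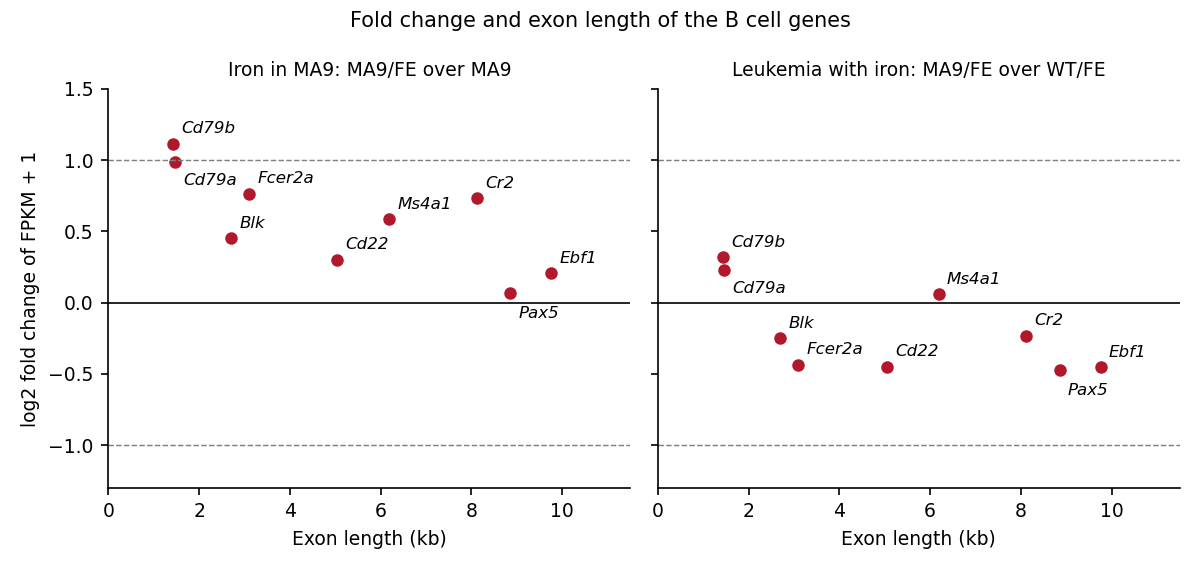
log2 fold change of FPKM + 1 against exon length in kb for the 9 genes, for MA9/FE over MA9 macrophages (left) and MA9/FE over WT/FE macrophages (right). Each point is a gene, the solid line marks no difference and the dashed lines a fold of 2. The short Cd79b and Cd79a have the highest values on both sides, 1.12 and 0.99 on the left, and the long Pax5 the lowest, 0.07 on the left.

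In leukemia cells the BCR and B lineage genes were near the limit of detection, with 2 exceptions. Cd79b had 450 reads in MA9 (409 to 494) and 420 in MA9/FE leukemia cells, at an FPKM of 17.3 and 16.4. Cd22 had 287 and 303 reads, at 3.13 and 3.37. These levels were far above those of the other members in the same cells. Cd79a had 22 and 26 reads (0.832 and 1.0 FPKM), Pax5 41 and 16, Blk 20 and 7, Ms4a1 13 and 14, Ebf1 14 and 6 and Fcer2a 4 and 9. Cr2 had 2 reads in each. The chains, of similar level in the macrophages, were therefore uneven here, with Cd79b at 20.8 and 16.4 times the level of Cd79a. Cd79b and Cd22 together made up 92% of the summed FPKM of the 9 genes without iron and 93% with iron, against 36% to 38% in the macrophage libraries.

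The 9 genes took 0.00470% of the reads of MA9 leukemia cells (0.00439% to 0.00502%) and 0.00450% of those of MA9/FE leukemia cells. Against the MA9 and MA9/FE macrophages, all 9 were lower with a fold of at least 2 at both iron states. Over all genes a fold of at least 2 was found in 20% without iron and 22.8% with iron, and a lower level with such a fold in 12.6% and 13.2%. Without iron the ratio of leukemia cells to macrophages was 0.0580 for Cd79b, 0.0300 for Cd22, 0.0109 for Ebf1, 0.00575 for Pax5 and 0.00487 for Blk. It was 0.00196 for Cd79a, 0.00159 for Fcer2a, 0.00149 for Ms4a1 and 0.000362 (4.4e-05 to 0.0013) for Cr2. With iron the ratios ran from 0.000225 (2.73e-05 to 0.000814) for Cr2 to 0.0268 for Cd22, and Cd79a had 0.00122 and Cd79b 0.0261. At both iron states Cd79b and Cd22 had the highest ratios and Cr2 the lowest. The macrophage markers were not absent from the leukemia cells, where Csf1r had 66.6 and 70.7 FPKM and Cd68 100.1 and 107, but most were lower there. Without iron 13 of the 17 were lower than in leukemic macrophages, 11 with a fold of at least 2, and 4 were higher. With iron 15 were lower, 12 with such a fold, and 2 were higher. The median log2 fold changes of the list were -1.43 and -2.77.

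Iron in leukemia cells was compared in the 7 members with at least 10 reads in one of the pair. None was past a fold of 2 once 1 had been added to the FPKM, against 0.863% of 15412 genes. Cd79a (at most 0.9996), Blk, Ms4a1, Pax5 and Ebf1 were under 1 FPKM in both libraries. Such levels cannot differ by a fold of 2 once 1 is added, so only Cd79b and Cd22 could have been counted. Cd79b at 0.949 (0.829 to 1.09), Cd22 at 1.07 (0.910 to 1.27), Cd79a at 1.20 (0.655 to 2.22) and Ms4a1 at 1.09 (0.477 to 2.53) had intervals that included 1. Blk, at 0.356 (0.127 to 0.876), and Pax5, at 0.397 (0.208 to 0.722), had intervals below 1, from 20 against 7 and 41 against 16 reads. Ebf1 had 0.436 (0.137 to 1.21) and Fcer2a, with too few reads for the count above, 2.29 (0.638 to 10.2). For Cd79a, Ms4a1, Ebf1 and Fcer2a the interval held both 1 and a fold of 2, so neither was excluded at this depth, and Cr2 allowed no fold.

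An additive fit over the 6 libraries, with the population and iron as terms, allowed a test with limma, whose error is the departure from a common iron shift. It rests on 2 residual degrees of freedom, with 3.2 more from moderation over all genes, and treats libraries of different conditions as replicates of a population. Leukemia cells were lower than leukemic macrophages for 9 of 9 members (limma, adjusted p from 5.2e-05 for Cd22 and Pax5 to 0.00056 for Cd79b), where 43.4% of 17149 genes were called and 23% were called lower. The log2 differences ran from -3.04 ± 0.15 (SE) for Ebf1 and -4.59 ± 0.35 for Cd79b to -6.40 ± 0.20 for Ms4a1 and -8.26 ± 0.28 for Cd79a. This order depends on the added 1 FPKM, since with a pseudocount of 0.1 Cd79b had the smallest difference of the 9 at -4.66, Ebf1 had -5.65 and Cr2 moved from -5.58 to -8.71.

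Between leukemic and nonleukemic macrophages 0 of 9 members were called by limma, where 1.04% of genes were called. An unadjusted p under 0.05 was found for 5 of 9, Cd22, Fcer2a, Cr2, Pax5 and Ebf1, and for 3520 of all 17149 genes. The log2 difference by limma was -0.89 ± 0.23 (SE, adjusted p = 0.13) for Fcer2a, -0.51 ± 0.11 (0.10) for Cd22 and -0.49 ± 0.12 (0.11) for Pax5. It was -0.29 ± 0.28 (0.60) for Cd79a and -0.32 ± 0.35 (0.65) for Cd79b, whose error was the largest of the 9. Without the MA9/FE macrophage library limma called 3 members, Fcer2a at -1.29 (adjusted p = 0.033), Cd79b at -0.93 (0.042) and Cr2 at -0.84 (0.044), and with any other library left out 0 were called. Without the MA9 macrophage library the differences turned to 0.19 for Cd79a, 0.30 for Cd79b and 0.02 for Ms4a1, and without the WT library those of the chains turned to 0.03 and 0.04. For iron against PBS limma called 0 of 9 members and 0% of all genes, and 611 genes, none of them a member, had an unadjusted p under 0.05. The log2 differences of the members with iron ran from -0.05 ± 0.09 for Pax5 to 0.33 ± 0.22 for Cd79a. Without either the MA9 or the MA9/FE macrophage library that of Cd79a was 0.01 and that of Cd79b turned from 0.27 to -0.14.

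Other genes of the pathway were followed in lists. Of 24 other B cell genes, 21 were lower and 3 higher with leukemia when no iron was given, at a median log2 fold change of -0.46. The fold was at least 2 for 1 of them, Fcmr, which encodes the IgM Fc receptor, at 278 in WT and 123 in MA9 macrophages. In MA9/FE against MA9 macrophages 21 were higher and 3 lower, again with Fcmr past a fold of 2, at 272 with iron. In MA9/FE against WT/FE macrophages 8 were higher and 16 lower, none with a fold of 2. All 24 were lower in leukemia cells than in leukemic macrophages by limma. Ly6d, the member of this list with the highest FPKM, had 450, 363, 263 and 509 in the macrophages. Among these 24, Cd24a at 94.3 and 110, Cd37 at 86.9 and 81.3 and Tnfrsf13b at 40.8 and 43.5 FPKM had the highest levels in the leukemia cells without and with iron.

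Signalling genes that B cells share with myeloid cells were present in both populations. Of 17 such genes, among them the kinases Syk and Lyn, 15 were lower and 2 higher in the MA9 than the WT library, none with a fold of at least 2. In leukemia cells against leukemic macrophages limma called 7 of them lower and 1, Vav1, higher, at a median log2 difference of -0.43. Lyn, the Src family kinase shared by both lineages, had an FPKM of 98.2, 103, 80.0 and 87.5 in the macrophages and of 37.4 and 39.3 in the leukemia cells. Its B cell relative Blk had 0.408 and 0.145 there. Syk, the kinase that binds phosphorylated CD79A and CD79B, had 89.8, 101, 75.9 and 79.2 in the macrophages and 33.5 and 32.3 in the leukemia cells.

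Of 10 genes of the early B lineage, those of the pre-B receptor and of recombination had few reads. Vpreb1 and Igll1, the surrogate light chain genes of pre-B cells, had at most 18 and 35 reads in any library, and Dntt at most 41. Rag1, the recombinase gene, had 28, 3, 194 and 44 reads in the macrophage libraries. Il7r, the IL-7 receptor gene, had 5.79, 5.60, 5.13 and 4.63 FPKM there, and Cd93 had 2.95, 2.67, 6.03 and 2.83, with 56.0 and 69.3 in the leukemia cells. The highest values of Vpreb1, Igll1 and Rag1 were in the MA9 macrophage library, where the 9 members were lowest among the macrophages. Among the macrophages Cd93 was highest there too, but Dntt was highest in MA9/FE, at 1.11 FPKM, and Il7r in WT.

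Genes of immunoglobulins and of later B cell stages had other patterns. Ighd, the IgD heavy chain gene of mature naive B cells, had an FPKM of 447, 453, 166 and 369, and its log2 fold change in MA9 against WT was -1.41. Igkc, the kappa light chain gene, had 8693, 9719, 18564 and 26598, so both leukemic libraries were above both nonleukemic ones, where those of Ighd were below. Jchain, which links secreted IgM and IgA, had 645, 601, 1357 and 1686. All 7 germinal centre genes were higher in the MA9 than the WT library, 4 of them with a fold of at least 2. Of 8 plasma cell genes limma called 2 higher in leukemic macrophages, Derl3 at 1.05 (adjusted p = 0.043) and Fkbp11 at 1.37 (0.041). The near-identical segments of immunoglobulin genes make single values uncertain. In the MA9 library the germinal centre and plasma cell lists had medians of 1.12 and 1.10 against WT, above 0, and the 9 members one of -0.69.

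**Figure D4:**
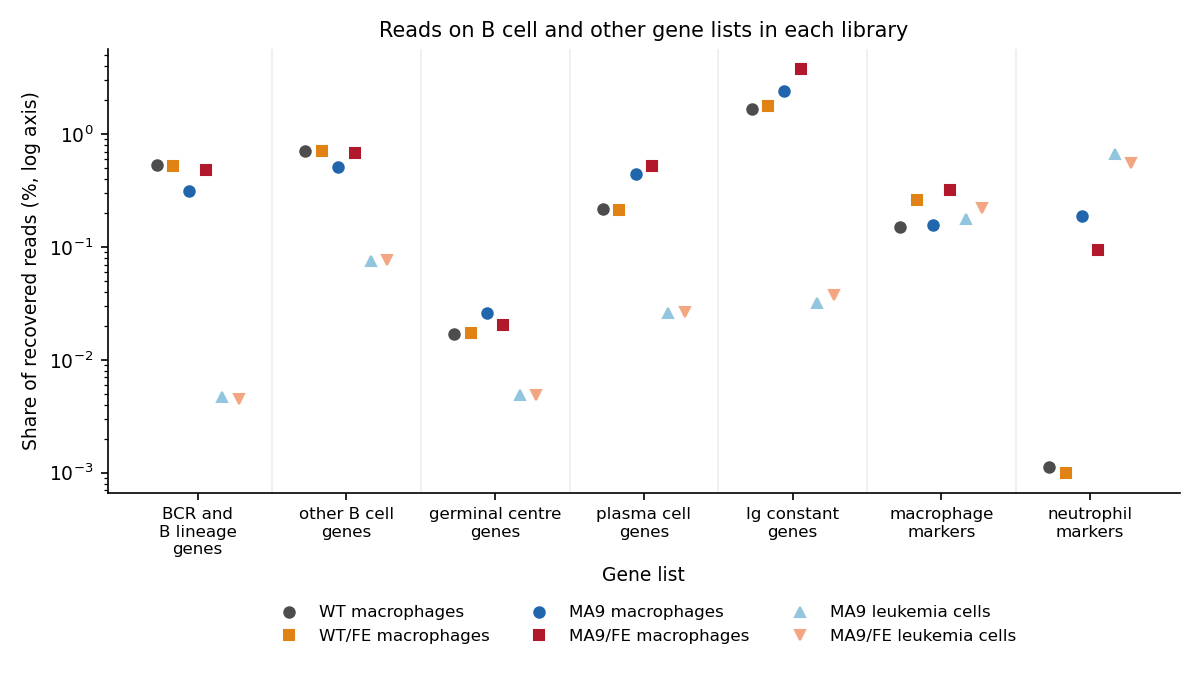
Share of recovered reads on a log axis for the 9 BCR and B lineage genes and for 6 other lists, with 1 point per library. MA9 macrophages are the lowest of the macrophages for the 9 genes at 0.312% and for the other B cell genes at 0.510%, while both leukemic libraries are above both nonleukemic ones for plasma cell genes (0.448% and 0.521% against 0.218% and 0.214%) and immunoglobulin constant genes.

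The genes most like the 9 were sought by Pearson's r over the 6 libraries between log2(FPKM + 1) and the mean of the members, among genes with at least 100 reads in a library. Cxcr5, the chemokine receptor that guides B cells to follicles, came first, with an FPKM of 59.0, 57.0, 34.1 and 52.9 in macrophages and of 0.116 and 0.0336 in leukemia cells. Others among the most alike were Sdc4, Gimap5, Myo1e, Ablim1, Slamf6, Gimap8, Ppp1r14a and H2-DMb2, with r down to 0.9997 for H2-DMb2. The 6 points share their libraries and fall into macrophages and leukemia cells, which lie far apart. Each member had an r of 0.996 (Cd79b) to 0.9997 (Cr2) with the mean of the other members over the 6 libraries. Over the 4 macrophage libraries alone it ranged from 0.78 for Pax5 and 0.83 for Cd79b to 0.98 for Cr2.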

How the data were processed

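RNA-seq of 6 libraries, 1 per condition, was deposited by the authors as FPKM per gene. The submitters' processing notes name Bowtie2 2.2.5, RSEM and mm10, with no role given. Reads were recovered from the deposited FPKM, the GENCODE M21 exon lengths and the value of 1 read in each library (37 genes without an exon length were left out). Levels of a pair were scaled by TMM, and log2(FPKM + 1) fold changes of at least 2-fold were counted in genes with at least 10 reads in a library of the pair. Ratios carry exact 95% intervals from the reads, which cover counting error only. No test was possible within a pair. limma 3.58.1 (R 4.3.3) was fitted to all genes that reached 10 reads in 2 or more libraries, with population and iron as terms and Benjamini-Hochberg adjustment (adjusted p at or under 0.05). Its p-values set each contrast against an error from the departure of single libraries from additive effects, moderated over all genes with a trend on level. This error does not measure the spread between mice of a condition. Other steps used Python 3.11.15, pandas 2.3.3, numpy 2.4.6, scipy 1.17.1 and statsmodels 0.14.6, and were tested on simulated data.

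The members and lists were chosen with earlier results of these data known. Named were the 9 members, a few defining markers, up to 3 genes of each other list with the highest FPKM, up to 3 with the largest fold past 2, and the 10 genes most like the members. Some genes that this rule names are not reported here. Cd24a, Cd37, Tnfrsf13b, Vav1, Syk, Derl3, Fkbp11 and the markers listed at 0 were named after their values were seen. Alternatives were other scaling, pseudocount, read minimum, terms and libraries. The removal of the exon length trend and the shorter EBF1 letters were added after the data were seen.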

Additional observations from a re-analysis of the deposited data

Results flagged for a closer look

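For 4 members the ratio of iron to PBS macrophages lay on opposite sides of 1 in mice without and with leukemia, with the counting interval on the same side as the ratio each time. Cd79a had a ratio of 0.927 in WT and 1.98 in MA9 mice, and its partner Cd79b 0.868 and 2.17. Ms4a1 had 0.870 and 1.51, and Fcer2a 0.871 and 1.71. For 3 of them the ratio of leukemic to nonleukemic macrophages was also on opposite sides without and with iron. It was 0.562 without and 1.17 with iron for Cd79a, 0.511 and 1.25 for Cd79b, and 0.616 and 1.04 for Ms4a1. With the exon length trend removed, the log2 fold change with leukemia and iron was 0.04 for Cd79a, 0.12 for Cd79b and 0.13 for Ms4a1. Both patterns are formed from the same 4 libraries, and neither difference was tested, since each condition has 1 library. The share of all genes that meet the same rule was not counted, so neither count can be called particular to the members.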

How the results depend on the processing

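No paired analysis was possible because each condition has 1 library and no replicate number that could serve as a block. The limma fit sets iron against PBS within each population. Of 422 recomputed log2 fold changes of the members, 419 kept their sign and their side of a fold of 2, and of the other 3 a pair crossed that fold and 1, which lay near 0, changed its sign. This value of Pax5 in WT/FE against WT macrophages, -0.01, became 0.00 with size factors by the median of ratios. In MA9/FE against MA9 macrophages 0 members in place of 1 were past a fold of 2 with the exon length trend removed. In the leukemia cells with and without iron 1 member in place of 0, Blk at -1.05, was past it with a pseudocount of 0.1. With 1 library left out in turn, limma called 0 to 3 members between leukemic and nonleukemic macrophages, 3 without the MA9/FE library and 0 otherwise. The lone libraries of such a fit are assumed to vary like the others. Without immunoglobulin and hemoglobin genes in the total, the members' share of reads was 0.549%, 0.535%, 0.329% and 0.520% in the macrophages.

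The counts over all genes depended more on the settings. With a pseudocount of 0.1, genes past a fold of 2 numbered 784 in place of 213 for WT/FE against WT, 1980 in place of 795 for MA9 against WT, 2081 in place of 758 for MA9/FE against WT/FE and 1498 in place of 406 for MA9/FE against MA9 macrophages. In leukemia cells with and without iron they numbered 630 in place of 133, and between leukemia cells and macrophages 5810 in place of 3407 without iron and 6497 in place of 3832 with iron. With no minimum of reads they numbered 481, 731 and 375 for iron in WT macrophages, MA9 macrophages and leukemia cells, and with at least 50 reads 116, 234 and 60. limma called 178 genes between leukemic and nonleukemic macrophages, 1 with no minimum of reads, 496 without the iron term, 803 in the macrophage libraries alone and 111 to 700 with 1 library left out. Those numbered 660 without MA9/FE macrophages, 669 and 700 without either leukemia cell library, 118 without MA9 and 111 without WT macrophages. Between leukemia cells and leukemic macrophages limma called 7439 genes, and 4339 to 8030 with 1 library left out. For iron it called 0, but 34 in the macrophage libraries alone and 0 to 30 with 1 library left out.

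The depth limited the leukemia cells, where 7 of the 9 genes had at most 41 reads.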

Other observations

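Genes listed as markers of other cell types were present in the libraries labelled as macrophages, and no test assigned them to a cell type. Of 9 marginal zone and B-1 cell genes, 7 were lower in MA9 than in WT macrophages and 8 were higher with iron in leukemic mice. The list of 10 T cell markers had a summed FPKM of 139, 112, 107 and 148 in WT, then WT/FE, MA9 and finally MA9/FE macrophages. Its highest gene in each of these libraries was Cd2. The 7 NK cell markers summed to 159, 99.4, 133 and 156, and 6 of them were lower in MA9 than in WT. The 8 dendritic cell markers summed to 312, 293, 238 and 209, of which Itgax alone had 159, 148, 109 and 88.2. The 8 erythroid markers summed to 92.9, 205, 272 and 503. Between leukemic and nonleukemic macrophages limma called 2 erythroid markers higher and none of the marginal zone, T cell, NK cell or dendritic cell genes.

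Of 10 pro-B and pre-B genes, 8 had enough reads in MA9 or WT macrophages. Of these, 6 were higher and 2 lower in MA9, at a median log2 fold change of 0.66, where 50.5% of all genes were lower. Among the 8 were Vpreb1 and Igll1, with 1 and 0 reads in WT and 18 and 35 in MA9. Cd93, also among them, was highest in the leukemia cells. With iron in leukemic mice, 6 of 8 were lower, at a median of -0.57. In that comparison all 9 members of the BCR and B lineage set and 51.8% of all genes were higher.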
